A study of Homo sapiens with 12 samples.

Results

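The 39 HOX genes of the 4 human clusters were examined for open chromatin in 2 established oesophageal squamous carcinoma cell lines. The members were all protein-coding genes whose symbol is HOXA, HOXB, HOXC or HOXD followed by digits only, 39 of 20033 protein-coding genes in the RefSeq table for GRCh38.p14. The HOXA cluster on chromosome 7 has 11 members, HOXB on chromosome 17 has 10, and HOXC on chromosome 12 and HOXD on chromosome 2 have 9 each. A peak was assigned to a gene when it had a height of 3 or more and lay within 2 kb of the span of that gene.

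Chromatin had been profiled by ATAC-seq, in which a transposase inserts sequencing adapters into accessible DNA. The study compared control cells with cells in which HCP5, a long non-coding RNA, was silenced, in each of the lines KYSE150 and KYSE510. Each of the 4 groups held 3 libraries, which makes 12, and both treatments of a line share its genotype and were grown in RPMI medium with serum. The labels do not give the method of silencing, the kind of control, or whether the replicates came from separate cultures, so p-values measure only the spread between these libraries, which may be technical.

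HOX genes encode homeodomain transcription factors that give cells their position along the body axis. Within a cluster they lie in the order in which they are used from head to tail: genes with low numbers (anterior) act in the hindbrain, pharynx and foregut, and genes with high numbers (posterior) act in the lower trunk, limbs and genitourinary tract. Polycomb complexes hold unused stretches of a cluster closed, Trithorax and MLL complexes keep used stretches active, and PBX and MEIS proteins bind DNA together with HOX proteins.

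Promoter windows of some HOX genes are shown first, from the RefSeq promoter table for GRCh38.p14. Each window has 300 bases, with 250 before and 50 after an annotated start, and is written 5′ to 3′ on the strand of the gene with every CpG dinucleotide in capitals. The table held 27 such windows for 20 of the 39 members. The first 4 windows below met a peak only in KYSE510, and the last 2 met peaks in both lines. They were chosen after the peak heights were known. Other windows also met a peak only in KYSE510, such as that of HOXA9 in 3 libraries. HOXC4 and HOXC5 were not called between the lines below, and HOXC11 and HOXC12, which were called, have no window.

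HOXD11 (chr2:176107030-176107329, plus strand, 27 CpG): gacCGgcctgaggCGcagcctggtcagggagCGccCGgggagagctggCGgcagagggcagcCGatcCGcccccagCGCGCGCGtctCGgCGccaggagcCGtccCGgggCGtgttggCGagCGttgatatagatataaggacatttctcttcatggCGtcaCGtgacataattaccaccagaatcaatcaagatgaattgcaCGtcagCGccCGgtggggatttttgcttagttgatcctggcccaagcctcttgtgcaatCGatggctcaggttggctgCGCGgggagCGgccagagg

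HOXD1 (chr2:176188418-176188717, plus strand, 36 CpG): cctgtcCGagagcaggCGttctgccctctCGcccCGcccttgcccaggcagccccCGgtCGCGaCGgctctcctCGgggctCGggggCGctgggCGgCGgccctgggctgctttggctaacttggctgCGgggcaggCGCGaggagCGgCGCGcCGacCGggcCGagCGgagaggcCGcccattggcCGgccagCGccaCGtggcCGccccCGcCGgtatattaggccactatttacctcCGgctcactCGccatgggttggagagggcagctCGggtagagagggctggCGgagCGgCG

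HOXA13 (chr7:27200042-27200341, minus strand, 44 CpG): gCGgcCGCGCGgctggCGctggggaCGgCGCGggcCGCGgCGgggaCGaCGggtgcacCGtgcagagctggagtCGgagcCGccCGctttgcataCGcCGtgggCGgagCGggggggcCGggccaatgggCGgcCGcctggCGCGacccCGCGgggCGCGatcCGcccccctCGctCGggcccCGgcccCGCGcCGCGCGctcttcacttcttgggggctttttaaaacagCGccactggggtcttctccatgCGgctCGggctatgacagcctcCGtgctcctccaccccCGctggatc

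HOXC4 and HOXC5, which share this start (chr12:54016638-54016937, plus strand, 15 CpG): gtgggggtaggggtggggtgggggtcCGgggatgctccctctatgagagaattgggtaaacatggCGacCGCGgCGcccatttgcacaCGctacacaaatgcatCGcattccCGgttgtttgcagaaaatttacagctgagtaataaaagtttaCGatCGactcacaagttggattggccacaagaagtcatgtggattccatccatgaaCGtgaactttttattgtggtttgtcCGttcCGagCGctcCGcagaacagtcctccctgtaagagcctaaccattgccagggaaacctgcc

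HOXA4 (chr7:27130708-27131007, minus strand, 27 CpG): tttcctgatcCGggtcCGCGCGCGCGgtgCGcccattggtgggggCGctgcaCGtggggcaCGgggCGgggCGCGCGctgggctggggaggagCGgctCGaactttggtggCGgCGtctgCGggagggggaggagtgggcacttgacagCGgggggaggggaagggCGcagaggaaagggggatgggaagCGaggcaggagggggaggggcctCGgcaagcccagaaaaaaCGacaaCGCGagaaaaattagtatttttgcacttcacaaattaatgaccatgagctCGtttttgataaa

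HOXA3, the one of its 7 annotated windows that was open most often (chr7:27150901-27151200, minus strand, 29 CpG): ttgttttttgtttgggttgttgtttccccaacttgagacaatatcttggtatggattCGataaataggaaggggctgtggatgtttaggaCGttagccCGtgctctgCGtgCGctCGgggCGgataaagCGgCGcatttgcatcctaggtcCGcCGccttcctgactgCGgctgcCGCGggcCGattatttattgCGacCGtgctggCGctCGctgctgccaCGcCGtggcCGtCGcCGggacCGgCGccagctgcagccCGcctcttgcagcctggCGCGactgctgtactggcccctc

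HOX promoter windows were not richer in G and C than promoters in general but held more CpG. The median GC content was 58.0% over the 27 HOX windows and 58.7% over all 35116 windows, whereas the median number of CpG was 22 against 14. The median ratio of observed to expected CpG was 0.849 against 0.579. The share that met a peak was lower than over all windows in every KYSE150 library. In that line, 7.41 to 18.5% of the HOX windows overlapped a peak in a library, beside 31.4 to 34.2% of all windows. In KYSE510 the range was 18.5 to 40.7%, beside 38.8 to 40.9% of all windows. Several of the 27 windows are alternative starts of HOXA3, and the window shared by HOXC4 and HOXC5 is counted for each gene. Members without a window include HOXA5 and HOXC13, which had tall peaks. The HOX values here and in the motif search therefore describe the annotated starts and not the members evenly.

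Short motifs were searched on both strands, and a site can match more than 1 of them. The joint HOX and PBX site TGATNNAT occurred in 3 of 27 HOX windows (11.1%) and in 7.40% of all windows, and 1 match is the run atcaatca in the HOXD11 window above. The AP-1 site TGANTCA occurred in 0 of 27 HOX windows and in 7.71% of all windows. The TATA box TATAAA occurred in 5 (18.5%) and 11.5%, and the cAMP response element TGACGTCA in 0 and 1.85%. These are matches of letters in a window and no measurement of binding.

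Depth is unknown because the deposited lists give peaks and no read totals. KYSE150 libraries had 52869 to 63295 peaks of height 3 or more and KYSE510 libraries had 104208 to 123109, while the median height was 5 in all 12. Between 70.4 and 74.1% of all genes had a peak in a KYSE150 library, and between 81.7 and 83.7% in a KYSE510 library. Any difference between the lines therefore cannot be told apart from a difference in sequencing or peak calling. Of 8 squamous epithelium markers, 5 had a peak in every KYSE150 library and 7 in every KYSE510 library. KRT14 and SOX2 had none in KYSE150, and KRT14 had 1 peak of height 3 in 1 KYSE510 library. Of the 5 leukocyte markers, LYZ had no peak in any library, while PTPRC and SPI1 had peaks in all 12. Of 5 mesenchymal markers, COL1A2, PDGFRB and TWIST1 had a peak in every KYSE150 library and COL1A1, COL3A1 and PDGFRB in every KYSE510 library, where TWIST1 had none. PDGFRB alone had one in all 12, and of 3 neural markers 2 did in KYSE150 and 3 in KYSE510.

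A smaller share of HOX genes than of all genes had a peak in every library, in both lines. In KYSE150, 13 of 39 members (33.3%) had a peak in every library and 10 had none, beside 62.6% and 17.3% of all genes. In KYSE510, 16 members (41.0%) had a peak in every library and 5 had none, beside 74.7% and 9.72% of all genes. A peak was present in all 12 libraries for 11 members (28.2%), beside 61.1% of all genes, and HOXB1 and HOXD4 had none in any. Heights were also expressed as the percentile of the tallest peak of a gene among the peaks of its library, with 0 for no peak. On that scale the median over members was 6.91 in KYSE150 and 38.4 in KYSE510, and over all genes 61.1 and 77.4. No test was made of these shares, since neighbouring HOX genes share peaks. A longer gene span also leaves more room for a peak, and genes were not matched for length. Member spans ran from 1677 bp (HOXD4) to 45574 bp (HOXA3). The part of length in these shares was not tested.

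**Figure D1:**
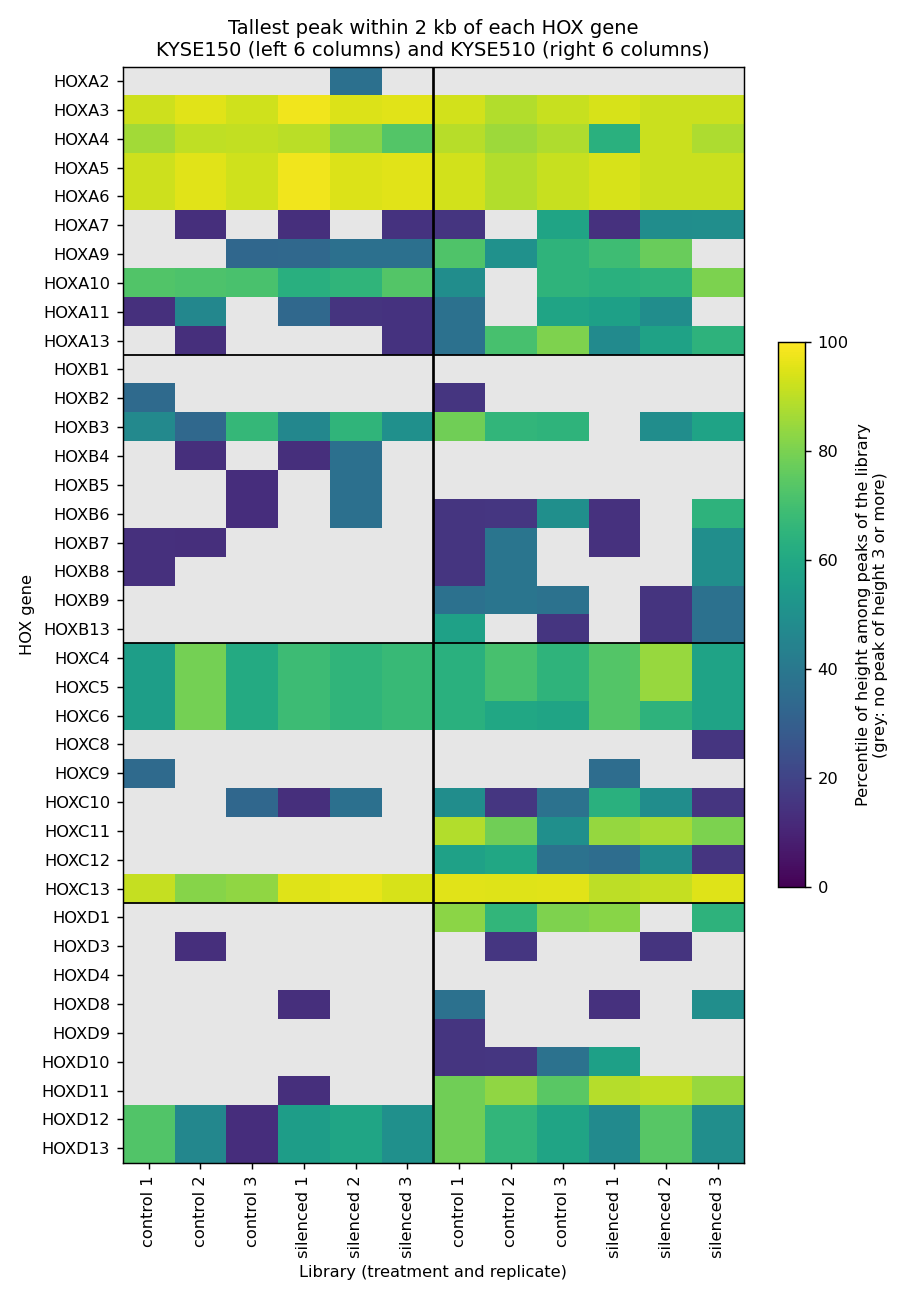
Percentile of the tallest peak of 38 HOX genes (rows, grouped by cluster) in each of the 12 libraries (columns; KYSE150 left and KYSE510 right of the black line), with grey where no peak of height 3 or more lay within 2 kb. HOXA3 to HOXA6, HOXC4 to HOXC6, HOXC13, HOXD12 and HOXD13 were coloured in all 12 libraries. Coloured in some or all KYSE510 libraries only were HOXB9, HOXB13, HOXC8, HOXC11, HOXC12, HOXD1, HOXD9 and HOXD10.

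Peaks over the anterior and central HOXA genes were among the tallest HOX peaks of both lines. HOXA5, a regulator of lung and foregut development, had its tallest peak in a region at chr7:27142860-27144022 that overlaps the higher-coordinate end of its span and lies within the span of HOXA3. HOXA3, which patterns the pharyngeal arches, HOXA5 and HOXA6 shared this peak in every library, so they are 1 measurement and not 3. In KYSE150 its height was 19, 24 and 20 in control libraries 1, 2 and 3 and 29, 20 and 19 in silenced libraries 1, 2 and 3. In KYSE510 it was 23, 15 and 18 in control and 22, 19 and 19 in silenced libraries. The heights of the lines overlapped, and the mean percentile was 94.7 ± 2.02 (SD, n = 6) in KYSE150 and 91.9 ± 1.89 in KYSE510.

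HOXA4 was open throughout as well. HOXA4 had heights of 14, 17 and 18 in KYSE150 control, 16, 11 and 8 in KYSE150 silenced, 18, 13 and 15 in KYSE510 control and 7, 19 and 15 in KYSE510 silenced libraries. Its peak met the promoter window printed above in all 12. HOXA2, the neighbour of HOXA3, had 1 peak of height 4 in silenced library 2 of KYSE150 and none elsewhere. Genes with and without peaks thus lay side by side in the anterior part of the cluster.

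Beyond HOXA6 the HOXA heights were lower. HOXA7 had 0 to 3 in KYSE150 and 0 to 6 in KYSE510. HOXA9, which acts in blood stem cells and leukaemia, had 0 to 4 and 0 to 10, HOXA10 had 7 to 9 and 0 to 11, and HOXA11 had 0 to 5 and 0 to 6. All 4 thus had at least 1 KYSE510 library without a peak, and HOXA10 was the 1 gene among them with a peak in every KYSE150 library.

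No member of the HOXB cluster had a peak in all 12 libraries. HOXB3, a pharyngeal and hindbrain gene, had its highest mean percentile in both lines, with heights of 4 to 8 in KYSE150 and 0 to 11 in KYSE510 and means of 51.6 ± 12.5 and 52.7 ± 27.6 (SD, n = 6). Its main region lay inside its span at chr17:48585200-48585998 and was called in 6 KYSE150 and 5 KYSE510 libraries. HOXB4 and HOXB5 had a peak of height 3 or 4 in 3 and 2 KYSE150 libraries and none in KYSE510, and HOXB2 had a single peak in 1 library of each line, of height 4 in KYSE150 and 3 in KYSE510. HOXB6, HOXB7 and HOXB8 had heights of 0 to 4, 0 to 3 and 0 to 3 in KYSE150 and 0 to 7, 0 to 5 and 0 to 5 in KYSE510. HOXB9, a thoracic gene, and HOXB13, a gene of the prostate lineage, had no peak in KYSE150 and heights of 0 to 4 and 0 to 6 in KYSE510.

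In the HOXC cluster the gene with the highest mean percentile was the same in both lines. HOXC13, a gene of hair and nail formation, had heights of 18, 12 and 13 in control and 22, 23 and 17 in silenced KYSE150 libraries, and 28, 23 and 24 in control and 17, 18 and 24 in silenced KYSE510 libraries. The merged region of this peak, chr12:53938281-53939055, covers the lower-coordinate end of the gene. HOXC4 and HOXC5 shared 1 tallest peak in every library, with heights of 6 to 11 in KYSE150 and 6 to 13 in KYSE510. HOXC6 had the same heights as these in KYSE150 and 6 to 9 in KYSE510. HOXC8 had 1 peak of height 3 in 1 of 12 libraries, and HOXC9 had 1 of height 4 in 1 library of each line.

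In the HOXD cluster the region shared by the lines lay between HOXD12 and HOXD13, genes of the digits and the genitourinary tract, at chr2:176097291-176098131. Both genes take their tallest peak from it. Its heights were 9, 5 and 3 in control and 6, 6 and 5 in silenced KYSE150 libraries, and 11, 7 and 6 in control and 5, 9 and 5 in silenced KYSE510 libraries. The lines overlapped there, with mean percentiles of 49.5 ± 20.0 and 62.3 ± 12.6. HOXD3, HOXD8 and HOXD9 reached heights of at most 3, 5 and 3 in any library, and HOXD4 had no peak.

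**Figure D2:**
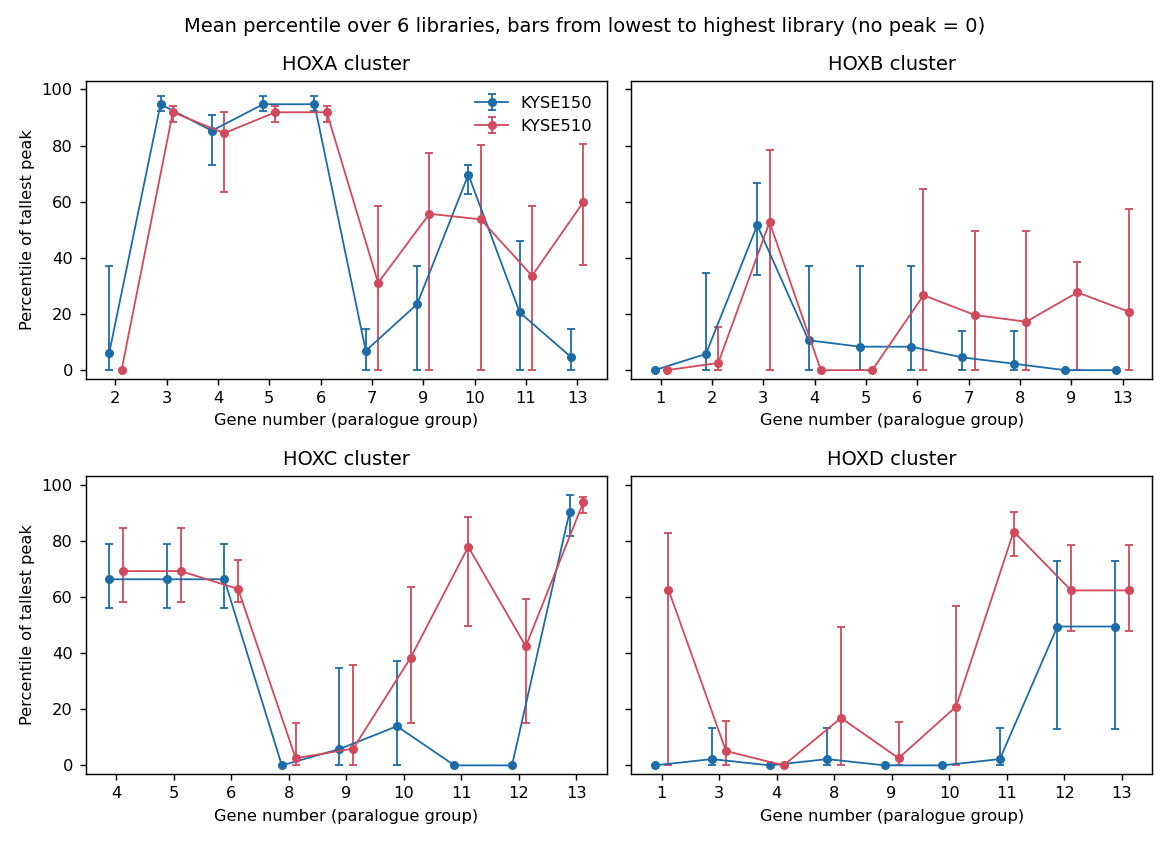
Mean percentile of the tallest peak (vertical axis; no peak counts as 0) against gene number along each cluster, for KYSE150 and KYSE510; bars run from the lowest to the highest of the 6 libraries of a line. The lines lie close together for HOXA3 to HOXA6 and HOXC13, and far apart for HOXC11 (0 against 77.9) and HOXD11 (2.23 against 83.3).

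Between the lines, HOX genes were called in both directions, and their share was in total below that of all genes. Heights were compared between lines by limma on a score, the normal score of the rank of the tallest peak of a gene within its library. Of 37 members that had a peak in at least 1 library, 5 were higher in KYSE510 and 8 were lower (Benjamini-Hochberg adjusted p under 0.05 over 18285 genes). Over all genes tested 39.8% were called, 20.0% higher and 19.8% lower. The 5 higher members are 13.5% of the 37, below the background share, and the counts show nothing particular to HOX genes. Higher were HOXD11, HOXC11, HOXC12, HOXD1 and HOXA13, and lower were HOXA2, HOXA3, HOXA5, HOXA6, HOXA10, HOXB4, HOXB5 and HOXC6. The median score difference was -0.178 over members and -0.0395 over all genes.

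Of the members called, HOXD11, a gene of limb and kidney patterning, had the largest score difference. Its tallest peak had heights of 11, 12 and 9 in control and 16, 17 and 13 in silenced KYSE510 libraries. In KYSE150 it had a peak of height 3 in silenced library 1 and none in the other 5 libraries. The groups did not overlap, and the score was 1.2 ± 0.143 (SE) higher in KYSE510 (limma, adjusted p = 8.93e-08). The region behind it, chr2:176106492-176107500, overlaps the start of the gene at 176107280 and lies mostly before it. Peaks in it met the promoter window printed above in 6 of 6 KYSE510 libraries, with heights of 11, 12 and 9 in control and 16, 11 and 13 in silenced libraries, so in silenced library 2 the tallest peak was not the one at the window.

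HOXC11, a hindlimb and lower trunk gene, had heights of 17, 10 and 5 in control and 13, 14 and 11 in silenced KYSE510 libraries and no peak in KYSE150. Its score was 1.16 ± 0.150 higher in KYSE510 (limma, adjusted p = 3.26e-07). HOXC11, HOXC12 and HOXD1 entered the fit through KYSE510 peaks alone. Their KYSE150 scores are those of any gene with no peak, -1.13 to -1.05, so their p-values measure no spread of these genes within KYSE150. Both regions behind the HOXC11 heights lay outside the gene span. One, chr12:53972124-53972675, is 451 bp beyond the lower-coordinate end and within the neighbouring long non-coding RNA gene HOTAIR, with heights of 17, 7, 5, 8, 6 and 11. The other, chr12:53978723-53979488, is 1080 bp beyond the higher-coordinate end, with heights of 11, 10, 5, 13, 14 and 6. When peaks were counted within the gene span alone, the HOXC11 score difference was -0.00444 (limma, adjusted p = 0.984).

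HOXC12, the next gene, had heights of 6, 6 and 4 in control and 4, 5 and 3 in silenced KYSE510 libraries and no peak in KYSE150. Its score was 0.491 ± 0.128 higher in KYSE510 (limma, adjusted p = 0.00286). The region, chr12:53952944-53953443, is 1460 bp outside the gene span, and the difference was -0.138 (adjusted p = 0.368) within the span alone. With a minimum height of 5 it was 0.0627 (adjusted p = 0.757). These 3 regions around HOXC11 and HOXC12 were the only ones of 89 merged HOX regions called in 6 of 6 KYSE510 and 0 of 6 KYSE150 libraries. They made up 3.37% of the HOX regions, and the share over all 290571 regions of the genome was 3.45%. No HOX region had the opposite pattern, beside 0.285% of all regions. At heights below 3, KYSE150 libraries listed peaks of 1 to 2 at the HOXC12 region in 5 libraries, and at the HOXC11 regions in 2 and 1 libraries.

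HOXD1 and HOXA13 completed the higher members. HOXD1, the anterior end of its cluster, had heights of 13, 7 and 11 in control and 12, 0 and 7 in silenced KYSE510 libraries and no peak in KYSE150, so silenced library 2 overlapped with KYSE150. Its score was 0.816 ± 0.187 higher in KYSE510 (limma, adjusted p = 0.000804), and the region chr2:176188249-176188814 covers the promoter window printed above. HOXA13, a gene of the digits and hindgut, had heights of 4, 8 and 11 in control and 5, 6 and 7 in silenced KYSE510 libraries, and of 0, 3, 0, 0, 0 and 3 in KYSE150. Its score was 0.544 ± 0.170 higher (limma, adjusted p = 0.0117). The region chr7:27200113-27200997, which starts 22 bp outside the gene span, gave the KYSE510 heights of 8, 11, 6 and 7, and the region chr7:27198896-27199518 inside the span gave those of 4 and 5. The difference was 0.236 (adjusted p = 0.188) within the span alone and 0.478 (adjusted p = 0.0517) with fold enrichment in place of height.

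**Figure D3:**
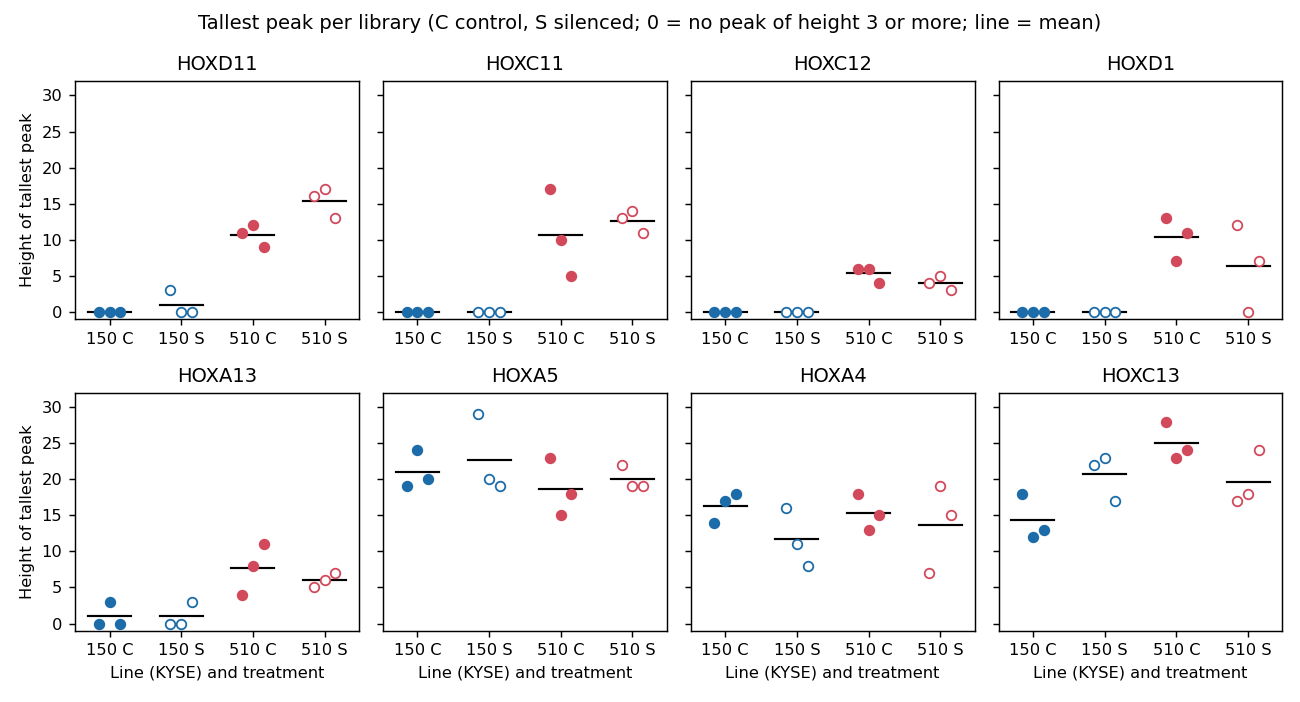
Height of the tallest peak in each library (vertical axis, pileup at the summit, not normalised; 0 means no peak of height 3 or more) for 8 HOX genes, by line and treatment (C control, S silenced), with a bar at each group mean. HOXD11, HOXC11, HOXC12 and HOXA13 separate the lines, HOXD1 separates them except for 1 KYSE510 library at 0, and HOXA5 overlaps between the lines at 15 to 29.

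None of the calls in the other direction was made on the percentile scale. The 8 members with a lower score in KYSE510 were HOXA10 at -0.616 ± 0.161, HOXB4 at -0.586 ± 0.137, HOXA3, HOXA5 and HOXA6 at -0.571 ± 0.128, HOXB5 at -0.488 ± 0.135, HOXC6 at -0.433 ± 0.130 and HOXA2 at -0.392 ± 0.126 (limma, adjusted p 0.000653 to 0.0140). More KYSE510 genes have a peak, so the score given to a gene with no peak was lower there, with means of -1.10 in KYSE150 and -1.36 in KYSE510. A member with no peak in either line would therefore differ by -0.263 by construction, which bears on HOXA2, HOXA10, HOXB4 and HOXB5, each without a peak in some libraries. HOXA3, HOXA5, HOXA6 and HOXC6 had a peak in all 12 libraries. When a peak in every library was required, these 4 were the members called lower and 0 were higher. Of 12242 genes tested there, 3305 were lower and 2315 higher. That filter changes which genes are tested and not their scores, so it is no separate check on these 4. The log2 height gave 6 members higher and 8 lower, beside 3612 and 3439 of 18285 genes. The fold enrichment gave 4 and 8, beside 2810 and 2587. HOXA3, HOXA5 and HOXA6, which share a peak, count separately in these numbers. The HOXA10 difference was -0.108 (limma, adjusted p = 0.733) within the gene span alone and -15.9 percentile points (limma, adjusted p = 0.217). On the percentile scale, an alternative added after the data were seen, 8 members were higher and 0 lower. Over all genes 45.5% were called there, 40.2% higher and 5.32% lower. Members called higher on this scale and not on the score included HOXB9 at 27.7 ± 6.20 percentile points and HOXA7 at 24.2 ± 9.32 (limma, adjusted p = 0.00246 and 0.0468). HOXB9 had no peak in KYSE150 and entered the fit through KYSE510 peaks alone, so its p-value measures no spread within KYSE150. HOXA3, HOXA5 and HOXA6 differed by -2.85 points (limma, adjusted p = 0.0573).

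Called on both scales were HOXD11, HOXC11, HOXC12, HOXD1 and HOXA13, all higher, with a background of 19.7% higher and 5.32% lower. Their differences on the percentile scale were 81.1, 77.9, 42.4, 62.7 and 55.2 points. The percentiles of the lines did not overlap for 5 members higher in KYSE510, among them HOXA13, HOXC11, HOXC12 and HOXD11, beside 23.6% of all genes. They did not overlap for 0 members lower in KYSE510, beside 2.69% of all genes. In bulk libraries, a site open in fewer cells cannot be told apart from a site less open in each cell.

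By position, the counts of open genes differed most between the lines among posterior genes (numbers 9 to 13). Of 16 posterior members, 4 (25%) had a peak in every KYSE150 library and 8 (50%) in every KYSE510 library, and 6 (37.5%) had none in KYSE150 against 0 in KYSE510. Of 12 anterior members (1 to 4), 5 had a peak in every KYSE150 library and 4 in every KYSE510 library, with 3 and 4 having none. Of 11 central members (5 to 8) the counts were 4 and 4, with 1 and 1 having none. Over all genes, 62.6% had a peak in every KYSE150 library and 74.7% in every KYSE510 library, with 17.3% and 9.72% having none. The blocks differ in size, and HOXD12 and HOXD13 share a peak. The regions called in every KYSE510 library near HOXC11 and HOXC12 lay outside the gene spans. These counts are descriptive, and their difference between the blocks of genes was not tested.

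With each peak counted once, HOXC and HOXD peaks were more numerous in KYSE510, whose libraries also had more peaks over the whole genome. The HOXC cluster had 4 to 6 distinct peaks per KYSE150 library and 10 to 12 per KYSE510 library, with means of 4.83 and 11.2 (exact permutation test, two-sided, p = 0.00216, which is the lowest value 6 against 6 allows; adjusted p = 0.00433 over 4 clusters). The HOXD cluster had 1 to 4 and 6 to 7, with means of 1.67 and 6.5 (exact permutation p = 0.00216, adjusted p = 0.00433). Neither cluster overlapped between lines. The HOXA cluster had 9 to 14 and 11 to 17 peaks, with means of 12.2 and 14.8 (exact permutation p = 0.0693, adjusted p = 0.0924). The HOXB cluster had 1 to 4 and 2 to 8, with means of 2.83 and 4.83 (exact permutation p = 0.102, adjusted p = 0.102).

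Per 10000 peaks of a library the HOXC and HOXD differences were smaller and that of HOXA changed sign. HOXC had 0.814 in KYSE150 and 0.982 in KYSE510 and HOXD had 0.280 and 0.573 (exact permutation, adjusted p = 0.0289 each), and on this scale both clusters overlapped between the lines. HOXA had 2.05 and 1.31, so that KYSE510 was lower by 0.742 (exact permutation, adjusted p = 0.0260), and HOXB had 0.468 and 0.423 (adjusted p = 0.643). The median background within 1 Mb of a cluster, relative to that of the library, ran from 0.600 to 0.833 for HOXD in KYSE150 libraries and from 0.806 to 0.944 in KYSE510 libraries. It was 1.14 to 1.40 and 1.25 to 1.61 at HOXC, 0.867 to 1.29 and 1.0 to 1.15 at HOXA, and 0.867 to 1.07 and 0.917 to 1.12 at HOXB. The part of this background in the results was not tested.

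**Figure D4:**
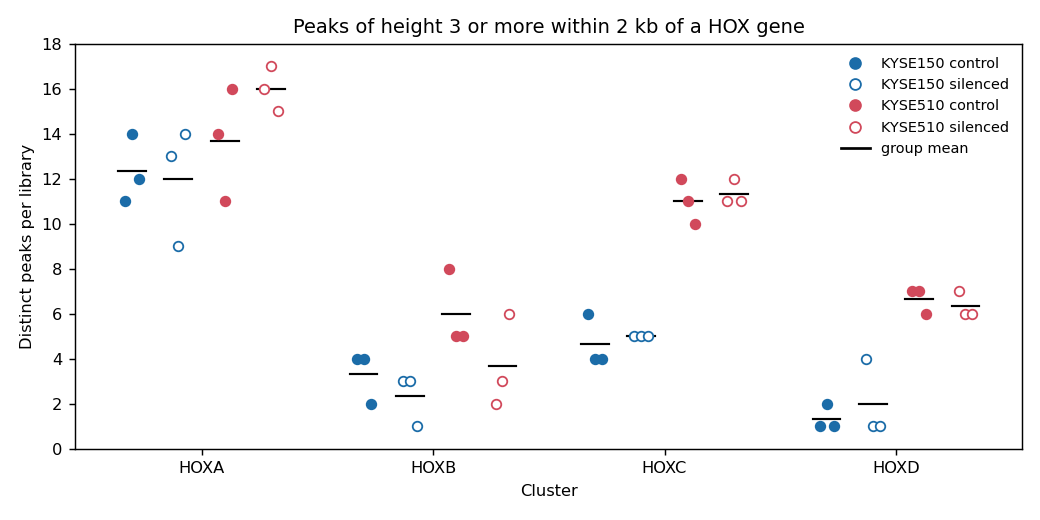
Number of distinct peaks of height 3 or more within 2 kb of any HOX gene of a cluster (vertical axis) in each library, by line and treatment, with a bar at each group mean. KYSE510 libraries have 10 to 12 HOXC and 6 to 7 HOXD peaks, above the 4 to 6 and 1 to 4 of KYSE150, whereas HOXA and HOXB overlap between the lines.

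No HOX gene was called changed after silencing of HCP5. By limma on the score, 0 of 29 members tested in KYSE150 and 0 of 34 in KYSE510 were called, beside 0% of 16567 and 0% of 18085 genes. At an unadjusted p under 0.05, 2 members were higher and 0 lower in KYSE150, beside 380 and 452 of all genes, and 1 was higher and 1 lower in KYSE510, beside 629 and 543. The difference in response between the lines gave 0 of 37 members, beside 0% of 18285 genes. At an unadjusted p under 0.05 it gave 0 members higher and 2 lower, beside 526 and 434 of all genes. The number of distinct HOX peaks was 21.7 ± 2.52 (SD, n = 3) in control and 21.3 ± 3.51 in silenced KYSE150 libraries (two-sided exact permutation p = 1). In KYSE510 it was 37.3 ± 3.51 and 37.3 ± 1.15 (exact permutation p = 1). With 3 libraries against 3, this test cannot give a p below 0.1.

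In KYSE150 the smallest p belonged to HOXC13, whose heights given above were higher in silenced libraries 1 and 2 than in any control, while silenced library 3 was within the control range. As percentiles the groups did not overlap, with 85.4 ± 5.19 in control and 95.1 ± 1.25 in silenced libraries (SD, n = 3). The score difference was 0.648 ± 0.203 (limma, adjusted p = 0.917). HOXA9 had heights of 0, 0 and 4 in control and 4, 4 and 4 in silenced libraries, with a score difference of 0.566 ± 0.264 (limma, adjusted p = 0.954). Control library 3 and all silenced libraries shared the height of 4, so the heights overlapped and the percentiles were separated only by the rank of that height in each list (33.2 against 33.9 to 37.1). The peak shared by HOXA3, HOXA5 and HOXA6 differed by 0.297 ± 0.202 (limma, adjusted p = 0.954). HOXC13 and HOXA9 were the 2 members whose percentiles did not overlap and were higher after silencing, beside 3.34% of all genes, and 0 members were lower without overlap, beside 6.42%.

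In KYSE510 the smallest p belonged to HOXB3, with heights of 11, 7 and 7 in control and 0, 5 and 6 in silenced libraries and a score difference of -0.568 ± 0.212 (limma, adjusted p = 0.625). HOXA10, a gene of uterine development, had 5, 0 and 7 in control and 7, 7 and 11 in silenced libraries, with a score difference of 0.554 ± 0.220 (limma, adjusted p = 0.668). HOXD11, with the heights given above, had a score difference of 0.376 ± 0.186 (limma, adjusted p = 0.772). Without overlap of percentiles, 1 member was higher after silencing (HOXD11, beside 4.72% of all genes) and 1 was lower (HOXB3, beside 6.44%). The HOXC13 score difference after silencing was 0.911 ± 0.254 lower in KYSE510 than in KYSE150, with an adjusted p of 0.604 by limma. The same contrast was -0.671 ± 0.308 for HOXB3 (limma, adjusted p = 0.927) and -0.743 ± 0.382 for HOXA9 (adjusted p = 0.956).

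One HOX region in KYSE510 was called in all silenced libraries and no control library. It lies inside the HOXD11 span at chr2:176111327-176111602, with heights of 7, 6 and 7 in the silenced libraries and no listed peak of any height in the controls. This was 1 of 76 HOX regions of the line (1.32%), beside 0.641% of all regions, and 0 HOX regions had the opposite pattern, beside 0.318%. In KYSE150, where peaks of height 1 to 2 were listed there in 3 libraries, 0 of 42 HOX regions had either pattern, beside 0.282% called after silencing alone and 0.742% called in controls alone.

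**Figure D5:**
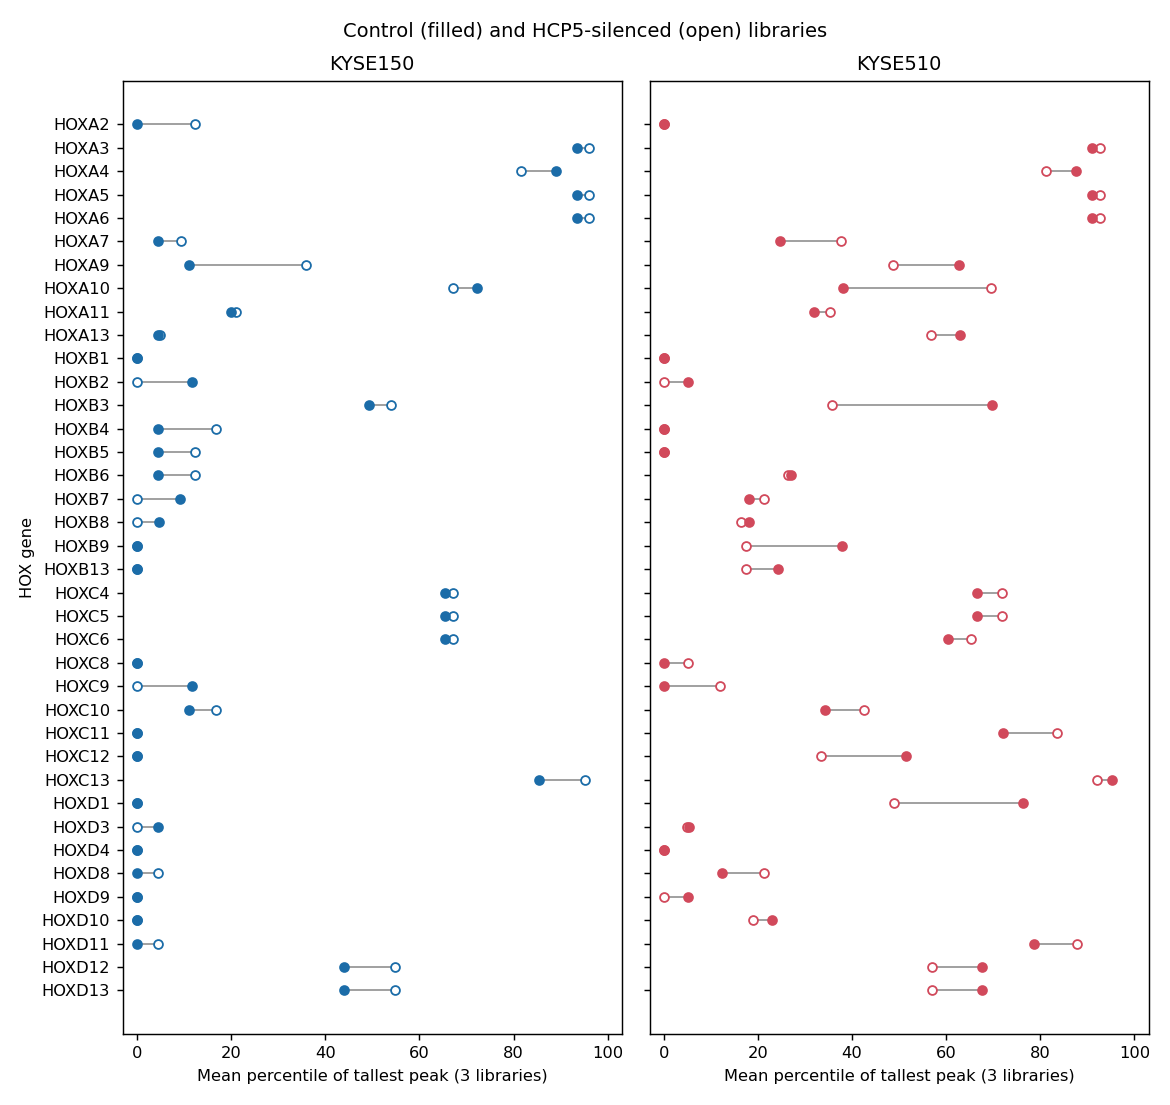
Mean percentile of the tallest peak (horizontal axis; no peak counts as 0) of 38 HOX genes in control (filled) and HCP5-silenced (open) libraries, 3 each, for KYSE150 (left) and KYSE510 (right). HOXC13 in KYSE150 (85.4 and 95.1) and HOXB3 in KYSE510 (69.7 and 35.7) had the smallest p in their lines, and no gene passed the adjusted threshold.

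Peaks at the long non-coding RNA genes of the clusters were in part the peaks of their HOX neighbours. HOTAIR, between HOXC11 and HOXC12, had no peak in KYSE150 and heights of 5 to 17 in all KYSE510 libraries. HAGLR, beside HOXD1, had none in KYSE150 and 5 to 13 in all KYSE510 libraries. HOTTIP, next to HOXA13, had at most 3 in 2 KYSE150 libraries and 4 to 11 in all KYSE510 libraries, which are the values of HOXA13. HOXA-AS3, beside HOXA5 and HOXA6, had peaks in all 12 libraries, and HOXC-AS1 had none. These genes were outside the fit, which held protein-coding genes, and they were given no test.

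Genes of the machinery around HOX function were compared between the lines as lists, by limma. Their counts stand beside a background of 39.8% called on the score (20.0% higher and 19.8% lower) and 45.5% on the percentile scale (40.2% and 5.32%), and with lists of 5 to 12 genes no excess is read from them. Of 9 HOX cofactor genes (PBX, MEIS and PKNOX families), 1 was higher and 3 lower in KYSE510 on the score, and 3 and 1 on the percentile scale. PBX4 was higher on both, with heights of 7 to 14 in KYSE150 and 20 to 25 in KYSE510 (score difference 0.444 ± 0.130, limma, adjusted p = 0.00721). PKNOX2 was lower on both, with heights of 10 to 29 and 10 to 15 (score difference -0.887 ± 0.142, limma, adjusted p = 1.0e-05).

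Of 12 Polycomb genes 0 were higher and 3 lower on the score, and 1 and 0 on the percentile scale, so no Polycomb gene was called on both. Of 9 Trithorax and MLL genes 2 were higher and 1 lower on the score and 5 and 0 on the percentile scale. KMT2B, an MLL-family methyltransferase, had heights of 5 to 12 in KYSE150 and 22 to 40 in KYSE510 (score difference 0.901 ± 0.142), and RBBP5, a subunit of the same complexes, had 3 to 14 and 12 to 31 (0.467 ± 0.170), both called on both scales. Of 5 tested ParaHox genes, the relatives of HOX genes that pattern the gut, 1 was higher on the score and 2 on the percentile scale. The first was CDX2, the intestinal regulator, with no peak in KYSE150 and heights of 3 to 10 in all 6 KYSE510 libraries. CDX2 thus entered the fit through KYSE510 peaks alone, and its call measures no spread within KYSE150. Of 6 tested genes flanking the clusters, 0 were higher and 3 lower on the score and 1 and 2 on the percentile scale, SKAP1 and SKAP2 being lower on both. Since limma called 0 of all genes after silencing in either line, none of these lists had a call there.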

How the data were processed

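Peak lists of 12 ATAC-seq libraries were used. Per the submitters' processing notes, the tools included Trimmomatic 0.36, Bowtie2 2.2.6, Picard 2.8.2, MACS2 2.1.1 and bedtools 2.25.0, with the build GRCh38. Per the file headers, each deposited peak has a pileup, a whole-number signal that is the height of the peak and carries no sign of normalisation. The deposited lists also give the fold enrichment of each peak, a ratio to local background, and a p-value, of which the largest was 0.00987. Lengths of peaks are those the authors deposited. KYSE150 lists hold heights from 1 and KYSE510 lists from 2, so peaks of height 3 or more on 24 chromosomes were used.

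Only gene spans of the RefSeq table were used, so exons and introns were not assigned. Local background was computed from each fold enrichment and height. Scores were ranked over all 20033 protein-coding genes in each library and tested with limma 3.58.1 (R 4.3.3; trend and robust moderation; treatment as a covariate between lines) over genes with a peak in at least 1 library. Peaks were merged into regions where they overlapped. Other steps used Python 3.11.15, numpy 2.4.6, pandas 2.3.3, scipy 1.17.1 and matplotlib 3.10.9. The limma step was tested on simulated data.

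Named members were those called by limma (at most 8 in each direction), the 3 with the smallest p in a fit that called none, the highest of each cluster and line, and those with no peak in a line. Named regions were the highest of each cluster and those called in all libraries of 1 line and none of the other. Some results on single genes are not reported here. Other members and regions were named after their values were seen. The members and lists were chosen with earlier results of these data known. Replicate numbers were not treated as pairs, because the labels give only a number. To compare numbers, the mean score of each gene in its group was subtracted, over genes with a peak in every library of the line. These remainders correlated at 0.0198 to 0.0479 between same-numbered control and silenced libraries in KYSE150 and at 0.0354 to 0.0962 in KYSE510. Remainders of libraries with different numbers correlated at -0.0478 to 0.0152 and -0.0717 to -0.00879, so the correlations do not exclude pairing. Replicates shared at most 0.0271% identical peaks. The alternatives tried were minimum heights of 2 and 5, distances of 0 and 5 kb, an FDR of at most 0.05, fold enrichment, log2 heights (pseudocount 1), percentiles, other gene filters, plain moderation, the replicate block, peaks per 10000 and each library left out.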

Additional observations from a re-analysis of the deposited data

Results flagged for a closer look

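In 14 of 71 sets of 6 libraries of a line, 1 library stood apart from the other 5 by Dixon's test. Its rate of about 1 in 20 by chance holds for continuous values and not here, since in 11 of the sets 5 libraries had no peak and any single peak then stands apart by construction. The number of distinct HOXD peaks in KYSE150 was 4 in silenced library 1 and 1 or 2 in the others. That library alone in its line had peaks of height 3 at HOXD8 and at HOXD11. In control library 1 of KYSE150 the only peaks of the line lay at HOXB2 (height 4), HOXB8 (height 3) and HOXC9 (height 4). In KYSE150 the only HOXA2 peak was in silenced library 2 (height 4) and the only HOXD3 peak in control library 2 (height 3). In KYSE510 the only peaks at HOXB2 and HOXD9 were in control library 1 (height 3 each), the only one at HOXC8 was in silenced library 3 (height 3) and the only one at HOXC9 in silenced library 1 (height 4). Silenced library 1 of KYSE510 was also the highest at HOXC6 (height 9) and the only one with 0 at HOXB9. The 11 peaks that were alone in their line lay at or just above the minimum height of 3.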

How the results depend on the processing

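Between the lines, 13 members were called by limma. This became 8 on the percentile scale and 4 (0 higher) when a peak in every library was required, and 9 to 17 under the other 22 alternatives (12 to 16 with 1 library left out). Within the gene span alone HOXC11 became -0.00444 and HOXC12 -0.138, and within 5 kb HOXA2 became 0.241 (limma, adjusted p = 0.984, 0.368 and 0.162). Inside the spans, peaks lay in 2 KYSE510 libraries at HOXC11 and 1 at HOXC12, and in no KYSE150 library. The lower score of a gene with no peak in KYSE510, described above, therefore bears on the HOXC11 and HOXC12 differences. HOXA2 was not tested without silenced library 2 of KYSE150, which holds its only peak. For silencing, within 5 kb HOXA9 became -0.0457 in KYSE150 and its difference between lines 0.340 (adjusted p = 0.993 and 0.964). The silencing fits called 0 members under all 18 alternatives in each line, as did the interaction fit under all 24. HOXC and HOXD peak numbers kept their direction and call under all 18 alternatives (6.17 to 6.57 and 4.70 to 5.30 with 1 library left out). The HOXA difference, 2.67, was 5 at a minimum height of 5 and 4.17 within gene spans, both passing the threshold (exact permutation, adjusted p = 0.00866 each). It was -0.742 per 10000 peaks, passing in the other direction (adjusted p = 0.0260). With 1 library left out it was 2.03 to 3.43, passing without control library 2 of KYSE510 (adjusted p = 0.0173). The HOXB difference was -1 at a minimum height of 2, -0.0458 per 10000 peaks and 1.37 to 2.57 with 1 library left out, passing without silenced library 1 of KYSE510 (adjusted p = 0.0404). The KYSE150 silencing difference in distinct peaks, -0.333, was 0.235 per 10000 peaks and -2.17 to 1.33 with 1 library left out. It was 0.833 without control library 2 and 1.33 without silenced library 2. The cause of these shifts was not tested.

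With the replicate number as a block, limma called 13 members between lines (5 higher, 8 lower) and 0 in the other 3 fits, and the differences in distinct peaks stayed -0.333 and 0 (exact sign-flip permutation p = 1). Over all genes it called 5 after silencing in KYSE510, where the fit without the block called 0. After the group means were subtracted, every silenced library correlated best with the control library of its own number. That is a hint from the data and not from the design. Depth is unknown, so no peak at a gene means no peak of height 3 or more, and closed sites cannot be told apart from sites below that height.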

Other observations

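Beside the regions described above, some were called in several libraries of 1 line and none of the other, chosen here after their values were seen. One called in 3 KYSE150 libraries lies inside the HOXB3 span at chr17:48555174-48555626, with a height of 3 in control libraries 1 and 2 and in silenced library 1. Among regions called in KYSE510 alone, chr7:27165215-27165689 at the higher-coordinate end of HOXA9 had heights of 7 in control library 3 and of 8 and 10 in silenced libraries 1 and 2. A region at chr17:48625718-48626367, at the higher-coordinate end of HOXB9, was called in 5 KYSE510 libraries and no KYSE150 library.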
